A study of Mus musculus with 20 samples.

Results

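The difference that tamoxifen given by injection made to the effect of a keratinocyte Cyp11b1 deletion, compared with tamoxifen given on the skin, was measured in all 20 libraries of the series, 5 mice in each of 4 groups. It is the interaction of genotype and route: cKO minus control after systemic tamoxifen, less cKO minus control after topical tamoxifen. A positive interaction therefore means a more positive systemic effect, and a negative one a more positive topical effect. The cKO mice were K14-CreERTam x Cyp11b1 L2/L2 and the controls were Cre-negative Cyp11b1 L2/L2 littermates, so every mouse carried the floxed alleles and every mouse received tamoxifen. The dose ran over 5 days, as 100 µl of 10 mg/ml into the peritoneum (systemic cKO and systemic control) or as 20 µl on the ear and 100 µl on the back (topical cKO and topical control). Keratinocytes were sorted from ear and dorsal skin on day 6, and total RNA of 2 M cells per mouse was sequenced. Cre was present only in cKO mice, so effects of Cre with tamoxifen and effects of losing Cyp11b1 cannot be told apart. The back was shaved for the topical route, and the carriers also differed (oil with ethanol for injection, ethanol on skin). Age, sex and litter of each mouse are not given in the labels.

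Cyp11b1 encodes the last enzyme of corticosterone synthesis, which the epidermis can carry out locally, outside the adrenal gland. Corticosterone acts through the glucocorticoid receptor, a nuclear receptor that restrains inflammatory genes in keratinocytes and shapes their differentiation. The K14 promoter drives Cre in basal keratinocytes, whose progeny move up through the suprabasal layers to the cornified layer.

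Library totals ran from 11.6 to 50.1 M counts, and pairs of libraries within a group had correlations of 0.932 to 0.986 across genes in log CPM (reads scaled to library size with TMM factors). Summed keratinocyte markers lay between 83709 and 121070 CPM. The marker genes tested were 8 of 8 keratinocyte, 9 of 12 hair follicle, 9 of 10 sebaceous, 3 of 12 immune and 7 of 10 fibroblast genes. For melanocyte, endothelial, erythroid and muscle lists they were 4 of 8, 6 of 8, 1 of 5 and 2 of 8. None passed the interaction test, which 0.25% of all genes passed, so this says little on cell composition. In the same order, the median interactions were -0.18, -0.72, -0.14, 0.49, -1.01, -0.61, -0.87, 1.69 and 0.070. Summed fibroblast markers reached 53.9 CPM in topical cKO, 23.6 in topical control, 32.8 in systemic control and 15.2 in systemic cKO. In bulk samples, fewer cells of a type and less RNA per cell cannot be told apart. A set of 6 libraries was highest in the summed level of 12 satellite-like predicted genes. This level was 79.4 CPM in systemic control 1, 1937 to 11674 CPM in the other 4 systemic controls and 37287 CPM in systemic cKO 2. In the other 14 libraries it was 0.839 to 42.5 CPM. The labels do not say whether systemic cKO 2 was prepared together with the systemic controls, and with so few Cyp11b1 reads its genotype label could not be checked. Whether it belongs to its labelled group was therefore not tested, and the 31 genes called below are plotted with and without it. At a cut of 50 CPM, the remaining 4 systemic cKO libraries and the 5 systemic controls lie on opposite sides. Without systemic cKO 2, genotype and this split cannot be told apart within the systemic route. At a cut of 1000 CPM, 4 systemic controls and systemic cKO 2 lie above, and systemic control 1 lies below with the remaining 4 systemic cKO libraries. Genotype and the split stay closely tied there too.

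Cyp11b1 itself was near the limit of counting in every group. It had 9 reads in 4 topical control libraries, 7 reads in 2 topical cKO libraries, 2 reads in 2 systemic control libraries and 4 reads in 1 systemic cKO library, with at most 6 reads in any library. A difference in its transcript between genotypes was not detectable at this depth, and the gene did not enter the test.

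The interaction was called for 31 of 12424 genes (edgeR quasi-likelihood test, Benjamini-Hochberg adjusted p under 0.05), which is 0.25% of the genes tested. The systemic effect was the more positive in 23 genes (0.185%) and the more negative in 8 (0.0644%). At an unadjusted p under 0.05 there were 1739 genes, or 14% of those tested. Of the 31, 27 were called in the systemic comparison alone (1.89% of all genes were called there), 2 in the topical comparison alone (Mgmt and Dcxr; 0.129% were called there) and 2 in neither (Sulf2 and Glb1). The effects had opposite signs in the 2 routes for 24 of the 31, against 58.7% of all genes. The systemic groups did not overlap in CPM for 16 of the 31, against 1.94% of all genes, and the topical groups for 9, against 1.4%. Systemic control lay apart from the 3 other groups in 10 of the 31 (0.789% of all genes), topical cKO in 3 (0.258%), systemic cKO in 1 (Nkd2, 0.193%) and topical control in 1 (Mtch1, 0.0805%), and no group did in 17. The interaction and the systemic comparison share 10 libraries, so these counts describe the 31 genes and add no independent evidence. At the threshold, 4 of the 31 had an adjusted p of 0.0499 and 6 further genes lay just outside at 0.0501.

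The count moved with the tool, the model and single libraries. It was 321 with the DESeq2 Wald test and 218 with limma voom and quality weights, and each included all 31. It was 0 by edgeR with the mouse number of the titles as a replicate block (smallest adjusted p 0.0542). Those numbers were not taken to pair the mice, as described below. The count was 16 without systemic cKO 5, 17 without topical control 7, 18 without topical cKO 5, 18 without systemic control 5, 19 without systemic cKO 6 and 20 without systemic cKO 4. It was 150 without systemic control 1 and 470 without systemic cKO 2. With satellite-like CPM as a covariate, coded as over 1000 or on the log2 scale, edgeR called 0 genes, with 723 and 533 at an unadjusted p under 0.05. In these codings the interaction log2 fold change of Mgmt was -1.49 and -1.51 (-1.40 without the covariate) and of Sulf2 -1.71 and -1.70 (-1.52). That of Laptm4a was 1.85 and 1.53 (2.78) and of Ociad1 0.88 and 0.65 (1.66). Coded as over 50, the covariate leaves the systemic effect to systemic cKO 2 alone, and sizes are given below.

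**Figure D1:**
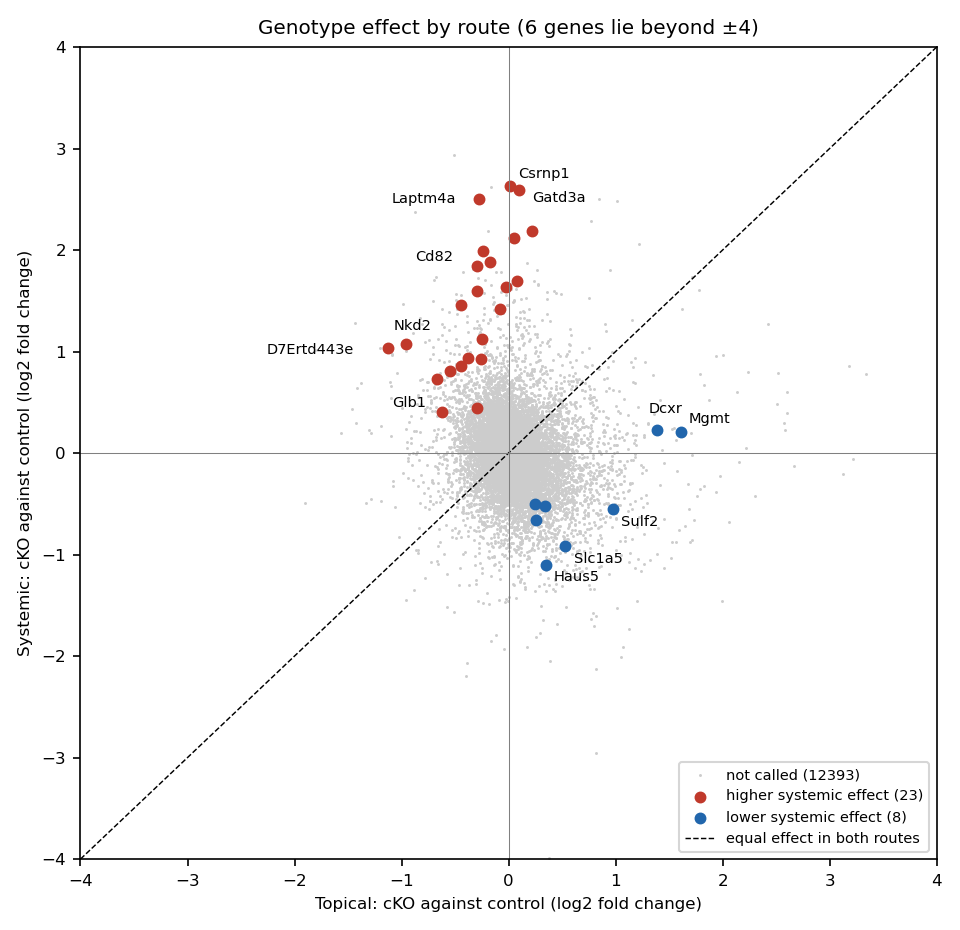
Each point is 1 of 12424 genes, placed by its log2 fold change of cKO against control in the topical route (x axis) and in the systemic route (y axis), with the dashed line marking equal effects; 6 genes lie beyond the axes. The 23 red genes lie above the line, most of them near 0 on the topical axis, and among the 8 blue genes below it Mgmt, Dcxr and Sulf2 lie farthest to the right.

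One set of genes was low in systemic control, with Laptm4a, Rraga, Ykt6 and Arpc3 among them. Laptm4a, a transmembrane protein of late endosomes and lysosomes (ENSMUSG00000020585, chr12:8921664-8938742, plus strand; build GRCm38 here and below), had 90.99, 87.4, 97.3, 97.5 and 96.1 CPM in topical control and 88.999, 53.1, 88.9, 40.2 and 116 CPM in topical cKO, in order of mouse number. It had 16.2, 13.4, 8.89, 12.9 and 13.1 CPM in systemic control and 19.8, 118, 84.2, 88.4 and 55.9 CPM in systemic cKO. All 5 systemic controls and systemic cKO 2, which is the first systemic cKO value, lay below the other 14 libraries. The interaction log2 fold change was 2.78 ± 0.46 (SE, adjusted p = 0.0115), with a systemic effect of 2.51 ± 0.34 and a topical effect of -0.28 ± 0.32. It was 3.03 without systemic cKO 2 and 0.90 with systemic cKO 2 as the only systemic cKO library.

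Rraga encodes a Rag GTPase that brings mTORC1 to the lysosome when amino acids are plentiful. Its systemic controls had 7.15, 7.92, 6.85, 6.72 and 6.998 CPM and its systemic cKO libraries 10.5, 21.2, 18.6, 27.3 and 17.5 CPM, whereas topical control ranged from 22.1 to 30.97 and topical cKO from 21.3 to 28.8 CPM. The systemic groups did not overlap and the topical groups did, with an interaction of 1.502 ± 0.25 (SE, adjusted p = 0.0115). Ykt6, a SNARE of membrane fusion between the endoplasmic reticulum, the Golgi and autophagosomes, had 6.96, 7.54, 6.32, 4.58 and 5.35 CPM in systemic control and 7.93, 25.96, 27.4, 28.96 and 22.2 CPM in systemic cKO. Topical control had 24.8, 26.97, 18.4, 21.3 and 22.4 CPM and topical cKO 20.5, 19.3, 20.998, 15.8 and 24.6 CPM. Systemic cKO 2 lay next to the systemic controls, and the other 14 libraries lay above them. The interaction of Ykt6 was 2.05 ± 0.33 (SE, adjusted p = 0.0115), and 2.27 without systemic cKO 2 and 0.54 with systemic cKO 2 as the only systemic cKO library. Arpc3, a subunit of the Arp2/3 complex that nucleates branched actin, ranged from 4.66 to 5.44 CPM in systemic control and from 14.8 to 20.9 in 4 systemic cKO libraries, with 7.13 in systemic cKO 2. Its topical groups ranged from 20.3 to 27.8 CPM (control) and 11.3 to 25.4 CPM (cKO), and its interaction was 1.89 ± 0.30 (SE, adjusted p = 0.0115).

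The mitochondrial genes Got2, Mtch1 and Slc25a20 were also lowest in systemic control on average, whereas Abhd11, described below, was highest there. Got2, the mitochondrial aspartate aminotransferase of the malate-aspartate shuttle, had 22.7, 19.6, 16.1, 17.1 and 16.01 CPM in systemic control and 22.7, 94.6, 66.1, 60.3 and 52.3 CPM in systemic cKO. The topical groups ranged from 78.1 to 98.3 CPM (control) and 68.95 to 110.0 CPM (cKO). Systemic cKO 2 was level with the highest systemic control and the other 4 lay above it, and the interaction of Got2 was 1.61 ± 0.34 (SE, adjusted p = 0.042). It was 1.82 without systemic cKO 2 and 0.23 with it as the only systemic cKO library. Mtch1, a carrier-like protein of the outer mitochondrial membrane, ranged from 13.1 to 21.7 CPM in systemic control and 25.1 to 43.1 CPM in systemic cKO. In the topical route it ranged from 43.5 to 55.1 CPM in control and 30.8 to 42.8 CPM in cKO, so control exceeded cKO there without overlap, and the interaction was 1.31 ± 0.23 (SE, adjusted p = 0.0138). Slc25a20, which carries acylcarnitines into mitochondria for fatty acid oxidation, had the smallest change among the 23, at 0.73 ± 0.16 (SE, adjusted p = 0.0499). Ociad1 and Gatd3a had interactions of 1.66 ± 0.36 (SE, adjusted p = 0.0499) and 2.49 ± 0.42 (SE, adjusted p = 0.013). Gatd3a was at 0.715 to 1.40 CPM in systemic control, 1.23 in systemic cKO 2 and 5.19 to 7.80 in the other 4 systemic cKO libraries. The interaction of Gatd3a was 2.73 without systemic cKO 2 and 0.27 with it as the only systemic cKO library, and that of Ociad1 1.88 without systemic cKO 2 and 0.17 with it as the only systemic cKO library.

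Further genes were also lowest in systemic control on average. Csrnp1, a nuclear protein induced by Axin, had 16.9, 18.8, 23.4, 20.4 and 10.7 CPM in systemic control and 20.9, 132, 135, 119.8 and 148 CPM in systemic cKO, against 71.3 to 159 CPM in topical control and 82.4 to 179 CPM in topical cKO. Systemic cKO 2 fell inside the control range and the other 4 lay between 119.8 and 148 CPM. The interaction of Csrnp1 was 2.62 ± 0.53 (SE, adjusted p = 0.0334), and 2.89 without systemic cKO 2 and 0.21 with systemic cKO 2 as the only systemic cKO library. Epha1, an ephrin receptor, had an interaction of 1.91 ± 0.34 (SE, adjusted p = 0.0147) and Sh3rf2, a SH3 and RING domain protein, one of 1.37 ± 0.24 (SE, adjusted p = 0.0138). Mmp24, a membrane-bound matrix metalloproteinase, had an interaction of 2.07 ± 0.38 (SE, adjusted p = 0.0168) and BC029722 one of 1.97 ± 0.42 (SE, adjusted p = 0.0499). These 2 genes lie on opposite strands of chromosome 2 and overlap by 637 bases. The interaction of BC029722 was 2.19 without systemic cKO 2 and 0.23 with it as the only systemic cKO library. The strand setting of the counting is not given in the sources used here, so their reads cannot be told apart.

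**Figure D2:**
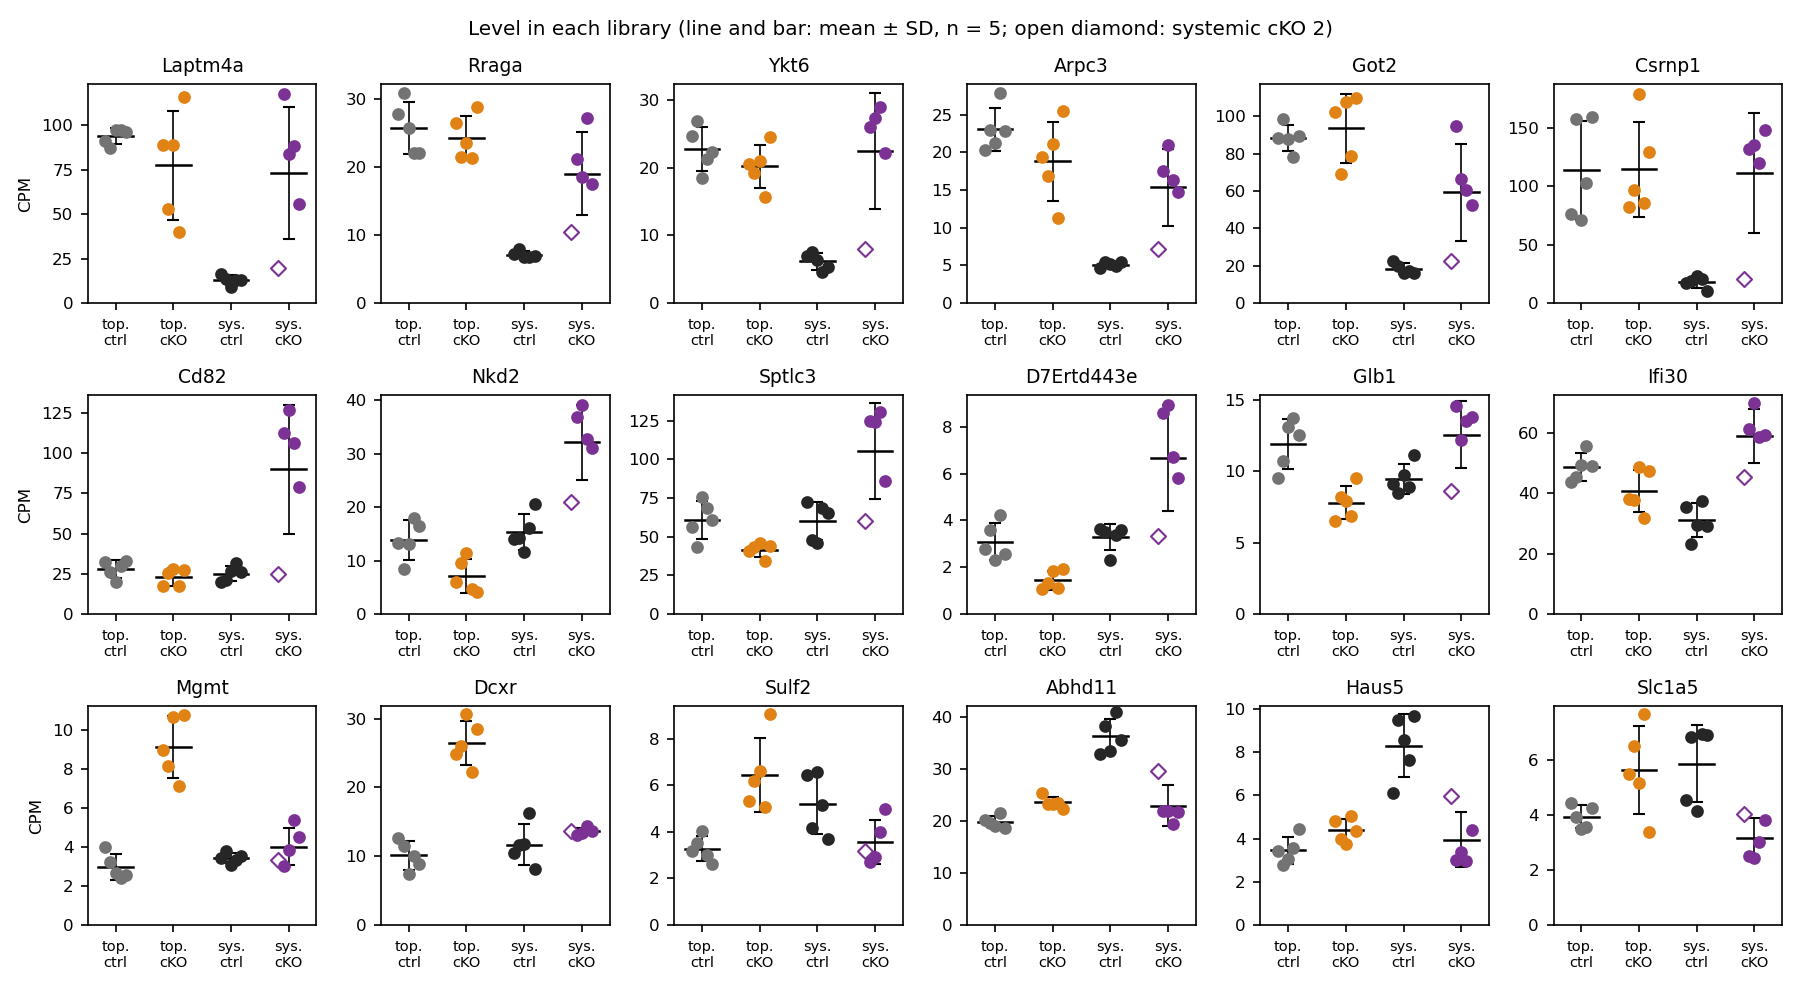
CPM of 18 of the 31 called genes in each library, by group (5 points a group; line and bar, mean ± SD; open diamond, systemic cKO 2). Laptm4a, Rraga, Ykt6, Arpc3, Got2 and Csrnp1 were low in systemic control and in systemic cKO 2, Cd82 and Nkd2 were highest in the other 4 systemic cKO libraries, and Mgmt and Dcxr were high in topical cKO alone.

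A second set was highest in systemic cKO. Cd82, a tetraspanin that organises integrins and receptors at the cell surface (ENSMUSG00000027215, chr2:93419111-93463140, minus strand), had 24.9, 112, 127, 106 and 78.97 CPM in systemic cKO and 19.9, 20.9, 26.5, 31.4 and 26.3 CPM in systemic control. It had 32.1, 25.9, 19.7, 29.8 and 32.8 CPM in topical control and 17.1, 25.5, 27.9, 17.2 and 27.4 CPM in topical cKO. Systemic cKO 2 lay among the 15 libraries of the other groups and the remaining 4 lay above all of them. The interaction of Cd82 was 2.14 ± 0.40 (SE, adjusted p = 0.0203), and 2.38 without systemic cKO 2 and 0.29 with systemic cKO 2 as the only systemic cKO library. Nkd2, an inhibitor of Wnt signalling that binds Dishevelled (ENSMUSG00000021567, chr13:73818534-73847631, minus strand), had 21.1, 36.9, 39.1, 32.7 and 31.1 CPM in systemic cKO and 14.04, 14.2, 11.7, 16.01 and 20.7 CPM in systemic control. Its topical values were 13.3, 8.47, 13.04, 17.995 and 16.4 CPM in control and 6.03, 9.63, 11.4, 4.70 and 4.09 CPM in cKO. All 5 systemic cKO libraries lay above the 3 other groups, and its interaction was 2.03 ± 0.36 (SE, adjusted p = 0.0138), with a systemic effect of 1.07 ± 0.25 and a topical effect of -0.96 ± 0.26.

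Sptlc3, Fut2, Atp2c2 and D7Ertd443e were also highest in systemic cKO on average. Sptlc3, a subunit of the enzyme that starts ceramide synthesis, ranged from 85.97 to 131 CPM in 4 systemic cKO libraries, 59.8 in systemic cKO 2 and 45.8 to 72.3 in systemic control. In the topical route it ranged from 43.3 to 75.4 CPM in control and 34.01 to 45.9 CPM in cKO, and its interaction was 1.36 ± 0.28 (SE, adjusted p = 0.042). Fut2, a fucosyltransferase that caps glycans, ranged from 15.7 to 25.1 CPM in 4 systemic cKO libraries, against 5.02 in systemic cKO 2 and 3.29 to 5.90 in systemic control, with an interaction of 2.23 ± 0.41 (SE, adjusted p = 0.0168). Without systemic cKO 2 and with it as the only systemic cKO library, the interaction of Fut2 was 2.46 and 0.44. Atp2c2, a calcium and manganese pump of the secretory pathway, had an interaction of 1.30 ± 0.27 (SE, adjusted p = 0.0386). Cyp39a1, an oxysterol hydroxylase, was not highest in systemic cKO: it ranged from 13.5 to 26.7 CPM in topical control, 9.45 to 13.6 in topical cKO, 8.36 to 12.3 in systemic control and 11.4 to 20.5 in systemic cKO, with an interaction of 1.40 ± 0.26 (SE, adjusted p = 0.0165). D7Ertd443e had 3.35, 8.60, 8.93, 6.70 and 5.81 CPM in systemic cKO, 2.30 to 3.64 CPM in systemic control, 2.32 to 4.21 CPM in topical control and 1.06 to 1.92 CPM in topical cKO. Its 5 topical cKO libraries lay below all 15 others. The direction of its genotype difference was opposite in the routes, at 1.04 ± 0.24 (systemic) and -1.13 ± 0.26 (topical), with an interaction of 2.17 ± 0.36 (SE, adjusted p = 0.0115).

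The interaction was also called for the lysosomal enzymes Glb1 and Ifi30. Glb1, the lysosomal beta-galactosidase (ENSMUSG00000045594, chr9:114401076-114474898, plus strand), had 9.53, 10.7, 13.1, 13.7 and 12.5 CPM in topical control and 6.50, 8.19, 7.92, 6.87 and 9.50 CPM in topical cKO. It had 9.06, 8.46, 9.74, 8.86 and 11.1 CPM in systemic control and 8.63, 14.5, 12.2, 13.5 and 13.8 CPM in systemic cKO. Topical cKO lay below topical control without overlap, and 4 of 5 systemic cKO libraries lay above systemic control. Neither route passed the test by itself (effects of -0.62 ± 0.15 topical and 0.41 ± 0.15 systemic), while the interaction was 1.02 ± 0.21 (SE, adjusted p = 0.0392). Ifi30, a lysosomal thiol reductase of antigen processing (ENSMUSG00000031838, chr8:70762774-70766663, minus strand), ranged from 45.5 to 70.2 CPM in systemic cKO and 23.4 to 37.6 CPM in systemic control. Its topical range was 43.7 to 55.8 CPM in control and 31.9 to 48.7 CPM in cKO. The systemic groups did not overlap and the topical groups did, and the interaction of Ifi30 was 1.19 ± 0.21 (SE, adjusted p = 0.0138).

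Among the 8 genes with the more negative systemic effect, 3 were high in topical cKO. Mgmt, which removes alkyl groups from guanine in DNA (ENSMUSG00000054612, chr7:136894614-137130266, plus strand), had 8.97, 8.19, 10.7, 7.12 and 10.8 CPM in topical cKO and 3.98, 3.26, 2.66, 2.43 and 2.55 CPM in topical control. It had 3.45, 3.83, 3.09, 3.36 and 3.52 CPM in systemic control and 3.35, 3.01, 3.87, 5.38 and 4.50 CPM in systemic cKO. Every topical cKO library lay above all 15 others. The topical effect was 1.61 ± 0.18, the systemic effect 0.21 ± 0.18 and the interaction -1.40 ± 0.26 (SE, adjusted p = 0.0165). It was -1.34 without systemic cKO 2 and -1.65 with systemic cKO 2 as the only systemic cKO library. Dcxr, a reductase of reactive dicarbonyls and of xylulose (ENSMUSG00000039450, chr11:120725399-120727281, minus strand), had 24.8, 26.1, 30.6, 22.3 and 28.5 CPM in topical cKO and 12.7, 11.5, 7.44, 10.1 and 8.87 CPM in topical control. Its systemic values were 10.5, 11.6, 11.8, 16.3 and 8.16 CPM in control and 13.7, 13.1, 13.4, 14.4 and 13.7 CPM in cKO. Again the topical cKO libraries lay above all others, and the interaction of Dcxr was -1.16 ± 0.22 (SE, adjusted p = 0.0251), and -1.15 without systemic cKO 2 and -1.15 with systemic cKO 2 as the only systemic cKO library. Sulf2, an extracellular sulfatase that trims heparan sulfate, had 5.33, 6.17, 6.61, 5.08 and 9.06 CPM in topical cKO and 3.18, 3.52, 4.03, 2.999 and 2.62 CPM in topical control. It ranged from 3.69 to 6.58 CPM in systemic control and 2.71 to 5.002 CPM in systemic cKO, which overlapped, and its interaction was -1.52 ± 0.30 (SE, adjusted p = 0.0306). It was -1.49 without systemic cKO 2 and -1.67 with systemic cKO 2 alone. D7Ertd443e and Mgmt, whose interactions had opposite signs, lie 2.51 Mb apart on chromosome 7.

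The other 5 were highest in systemic control on average, although Slc1a5 was nearly as high in topical cKO (means of 5.87 and 5.65 CPM). Abhd11, a hydrolase of mitochondria, had 32.9, 38.3, 33.5, 40.9 and 35.6 CPM in systemic control and 29.6, 22, 21.9, 19.5 and 21.8 CPM in systemic cKO, against 18.7 to 21.5 CPM in topical control and 22.3 to 25.4 CPM in topical cKO. The 5 systemic controls lay above all other libraries and systemic cKO 2 was the next highest, with an interaction of -0.91 ± 0.16 (SE, adjusted p = 0.013). Haus5, a subunit of the augmin complex of the mitotic spindle, had 6.13, 9.48, 8.56, 7.65 and 9.67 CPM in systemic control and 5.99, 3.01, 3.37, 2.97 and 4.38 CPM in systemic cKO. Its topical groups ranged from 2.79 to 4.44 CPM (control) and 3.77 to 5.03 CPM (cKO), and its interaction was -1.44 ± 0.28 (SE, adjusted p = 0.0208). Med10, a Mediator subunit, had an interaction of -0.75 ± 0.15 (SE, adjusted p = 0.0306) and Slc39a13, a zinc transporter, one of -0.86 ± 0.18 (SE, adjusted p = 0.0499). Slc1a5, the glutamine transporter, ranged from 4.15 to 6.93 CPM in systemic control and 2.42 to 4.05 CPM in systemic cKO, and from 3.48 to 4.44 CPM in topical control and 3.40 to 7.68 CPM in topical cKO. The interaction of Slc1a5 was -1.45 ± 0.30 (SE, adjusted p = 0.0417).

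The size of many of these values moved with systemic cKO 2. Without it, 470 of 12575 genes were called (3.74%), 281 with the more positive systemic effect (2.23%) and 189 with the more negative one (1.5%), and all 31 were among them. The interaction grew in 23 of the 23 genes of the first direction and in 5 of the 8 of the second. With systemic cKO 2 as the only systemic cKO library, 14 of the 23 fell under 0.5 of their value in all libraries, and all 8 kept at least 0.5 of theirs. None of the 31 was called then, with 1 systemic cKO library whose spread is assumed to be that of the other groups.

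Leaving out each of the 20 libraries in turn, 14 of the 23 genes and 2 of the 8 (Abhd11 and Mgmt) kept their call in every fit. The call was lost in 18 of 20 fits for Ociad1, in 17 for Got2, BC029722 and Slc25a20, in 16 for Sptlc3, in 15 for Slc1a5 and Slc39a13, in 14 for Atp2c2 and Glb1 and in 12 for Csrnp1. It was lost in 10 fits for Med10, 8 for Sulf2, 7 for Dcxr, 5 for Haus5 and 3 for Cd82.

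**Figure D3:**
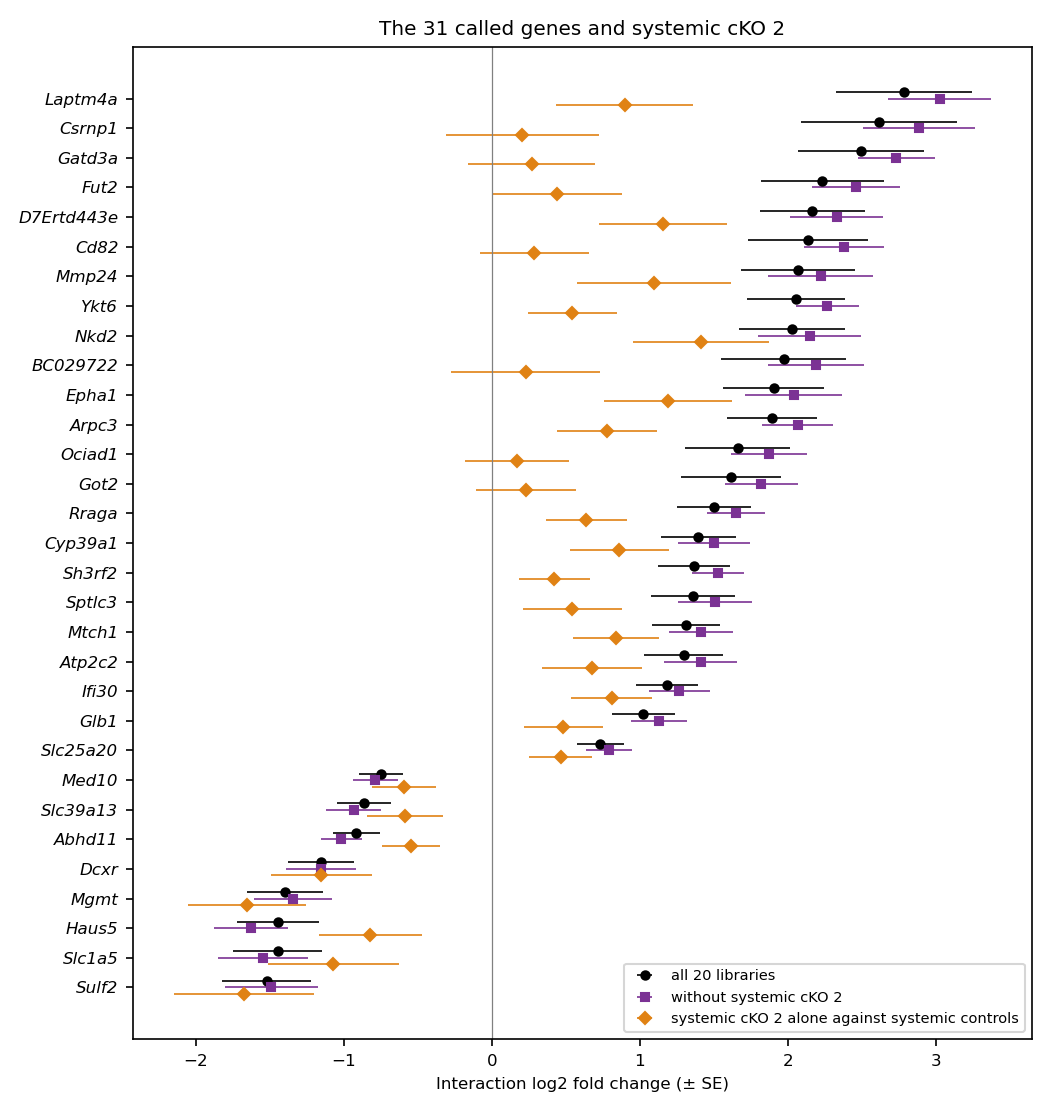
Interaction log2 fold change (x axis, ± SE) of the 31 called genes (rows) in all 20 libraries, without systemic cKO 2, and with systemic cKO 2 as the only systemic cKO library. Ociad1, Csrnp1, Got2 and Cd82 lie near 0 in the last setting, while Mgmt, Dcxr and Sulf2 barely move.

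Promoters of Glb1, Ifi30, Mgmt and Dcxr are shown as a pair of lysosomal genes with the more positive systemic effect and the pair with a call in the topical comparison. Each runs from 250 bases before to 50 after the start listed by RefSeq (GRCm38.p6), in the direction of the gene. Capitals mark matches on either strand to the E-box CACGTG, to the AP-1 site TGACTCA or to the CCAAT box. In Glb1 the AP-1 and E-box matches overlap, and Mgmt has no match. The promoter of Laptm4a, also a lysosomal gene with the more positive systemic effect, is not shown. Its window has an AP-1 match and no E-box match, so the E-box is not shared by all called lysosomal genes.
Glb1 (chr9:114400828-114401127, plus strand): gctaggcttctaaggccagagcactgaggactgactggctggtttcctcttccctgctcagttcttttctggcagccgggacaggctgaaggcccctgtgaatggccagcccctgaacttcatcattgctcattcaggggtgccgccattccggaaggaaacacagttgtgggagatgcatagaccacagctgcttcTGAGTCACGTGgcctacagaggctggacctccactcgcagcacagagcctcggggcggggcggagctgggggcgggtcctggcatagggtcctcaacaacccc
Ifi30 (chr8:70766614-70766913, minus strand): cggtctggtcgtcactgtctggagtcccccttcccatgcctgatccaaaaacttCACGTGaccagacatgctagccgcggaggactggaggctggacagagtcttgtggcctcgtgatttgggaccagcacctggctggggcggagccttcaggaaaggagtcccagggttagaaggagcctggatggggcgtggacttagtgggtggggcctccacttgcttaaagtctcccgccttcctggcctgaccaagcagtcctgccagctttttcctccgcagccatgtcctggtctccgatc
Mgmt (chr7:136894336-136894635, plus strand): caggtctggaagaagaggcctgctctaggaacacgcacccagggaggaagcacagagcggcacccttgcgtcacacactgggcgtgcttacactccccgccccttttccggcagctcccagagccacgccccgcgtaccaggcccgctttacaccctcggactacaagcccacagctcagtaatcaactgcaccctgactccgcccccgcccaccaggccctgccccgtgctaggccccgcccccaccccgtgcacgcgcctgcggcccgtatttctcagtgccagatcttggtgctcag
Dcxr (chr11:120727235-120727534, minus strand): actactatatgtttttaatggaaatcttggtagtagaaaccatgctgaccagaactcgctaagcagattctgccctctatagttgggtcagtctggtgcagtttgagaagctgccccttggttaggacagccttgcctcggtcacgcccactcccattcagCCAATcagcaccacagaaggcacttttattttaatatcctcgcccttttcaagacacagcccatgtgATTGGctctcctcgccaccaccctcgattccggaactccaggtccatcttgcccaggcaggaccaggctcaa
A promoter was listed for 26 of the 31 genes, and 1 window a gene was searched, the one whose start lies nearest to the GENCODE start. The palindromic glucocorticoid response element, searched in its consensus form, matched 0 of the 26, and 0 of 9463 promoters of the genes tested. One arm of it, AGAACA, matched 2 of 26 (7.69%), against 11.9% of all. CACGTG, the E-box bound by lysosomal gene regulators among others, matched Glb1 and Ifi30 among the 26 (7.69%), against 10.4% of all. TGACTCA, the AP-1 site, matched 2 (7.69%, against 3.57%), TGACGTCA, the cAMP response element, matched 2 (7.69%, against 3.30%), and CCAAT matched 5 (19.2%, against 39.3%). A match describes letters in this window and is not a bound site.

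By function, 31 gene lists were described by their counts and medians, beside all genes tested, whose median interaction was -0.028, with 47.2% above 0, 0.25% called and 14% at an unadjusted p under 0.05. Calls and p-values in the lists are those of edgeR unless another tool is named. The cornified envelope and late differentiation list, genes of the outermost epidermal layers, had a median of 0.76, with 22 of its 29 tested genes above 0. It was the highest median of the 31 lists in these genes, but it was 0.36 with no filter, where the ribosomal list was highest at 0.52, and 0.23 with the satellite split at 50 CPM in the model, where the mitochondrially encoded list was highest at 0.58. None of the 29 was called in the interaction by edgeR, 11 had an unadjusted p under 0.05, and 4 were called higher in systemic cKO (1.36% of all genes). The DESeq2 Wald test called 3 of 27 higher in the interaction (220 of 11942 genes in all). With limma voom and quality weights 3 of 29 were called higher (143 of 12424 genes in all). Spink5, a protease inhibitor of the cornified layer, ranged from 82.2 to 131 CPM in systemic control and 117 to 319 CPM in systemic cKO, with an interaction of 1.47 ± 0.35 (SE, adjusted p = 0.062), which was 1.64 without systemic cKO 2 and 0.45 with it as the only systemic cKO library. Cdsn, the adhesion protein corneodesmosin, had an interaction of 1.91 ± 0.47 (SE, adjusted p = 0.0682), which was 2.10 without systemic cKO 2 and 0.70 with it as the only systemic cKO library. The suprabasal list had a median of 0.47 (0.71 without systemic control 1) with 14 of 14 genes above 0 and none called. With satellite-like CPM in the model, coded over 50, over 1000 or on the log2 scale, this median was 0.16, 0.22 and 0.12. The basal list, keratinocytes anchored to the basement membrane, had a median of -0.41 with 14 of 16 genes below 0 and none called. In the 3 satellite codings the basal median was -0.24, -0.24 and -0.29, and with the mouse number as a replicate block it was -0.22.

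Stress keratins and epidermal alarmins, genes of injured or inflamed epidermis, had a median of -0.94, with 9 of 10 genes below 0 and none called. It was the lowest median of the 31 lists in these genes with no library left out, and it was -0.60 without systemic control 6, -0.27 with the satellite split at 50 CPM in the model and -0.83 with no filter. Interferon-stimulated genes were lowest with that split and with no filter, at -0.54 and -1.13, and ranks with a library left out are not given here. Krt6a, a keratin of wounded epidermis, had 386, 169, 483, 98.8 and 2147 CPM in topical cKO and 694, 42.5, 139.6, 48.3 and 22.99 CPM in systemic control. Single libraries stood out in both groups, and its interaction was -3.06 ± 1.27 (SE, adjusted p = 0.284). The interaction of Krt6a ran from -3.49 to -1.47 as each library was left out, and was -1.29 with the replicate block. Interferon-stimulated genes had a median of -0.62 with 12 of 16 below 0 and none called by edgeR. The median was -0.31 without topical cKO 7, -0.93 without topical cKO 5 and -0.21 with limma voom and quality weights. Topical cKO 7 held the highest Irf7 (10.1 CPM) and Ifi27l2a (50.5 CPM) of its group. Irf7, a transcription factor of the interferon response, had an interaction of -2.32 ± 0.63 (SE, adjusted p = 0.0956) and was called by the DESeq2 Wald test (adjusted p = 0.0217). Ifi27l2a was called higher in topical cKO (effect 2.51 ± 0.50), and its interaction of -2.03 ± 0.72 (SE, adjusted p = 0.195) did not pass. That interaction ran from -2.275 to -1.093 as each library was left out. Targets of p53 had a median of -0.46, with 16 of 21 below 0, none called by edgeR and 7 at an unadjusted p under 0.05. The median was -0.22 without systemic cKO 4, -0.24 without systemic cKO 5, -0.26 without topical control 1 and -0.23 with limma voom and quality weights. Bax, which permeabilises mitochondria in apoptosis, had 23.5, 20.4, 28.8, 20.9 and 27.6 CPM in topical cKO, 16.3, 17.9, 10.3, 14.9 and 16.2 in topical control, 16.1, 12.4, 18.8, 15.3 and 13.3 in systemic control and 14.5, 13.3, 12.3, 13.4 and 11.9 in systemic cKO. Topical cKO lay above the other 15 libraries, and the interaction of Bax was -0.89 ± 0.21 (SE, adjusted p = 0.0618). The DESeq2 Wald test called the interaction of Bax (adjusted p = 0.011). Polk, a DNA polymerase that copies past damaged bases, was called higher in topical cKO (effect 1.19 ± 0.22), with an interaction of -1.20 ± 0.31 (SE, adjusted p = 0.0761). Its interaction was called by the DESeq2 Wald test (adjusted p = 0.0198).

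Glucocorticoid receptor targets had a median of -0.079 (-0.29 to 0.053 as each library was left out), with 9 of 24 above 0, none called and 1 at an unadjusted p under 0.05. That gene was Tsc22d3, the receptor target GILZ, with 119, 51.8, 106, 112 and 74.2 CPM in systemic control and 77.7, 168, 199.7, 157 and 122 CPM in systemic cKO. The systemic groups overlapped, and the interaction was 0.87 ± 0.37 (SE, adjusted p = 0.293). Steroid synthesis and steroid receptor genes were mostly below the filter, with 7 of 18 tested, a median of -0.18 (-0.30 to -0.079 as each library was left out) and none called. The mineralocorticoid receptor gene Nr3c2 had an interaction of -0.78 ± 0.58 (SE, adjusted p = 0.571), or -0.99 to -0.45 as each library was left out.

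The 31 called genes also had members in other lists, which are counted beside the 0.25% of all genes called, with the range of the median as each library was left out in brackets. The lists were chosen with earlier results of these data known. Their counts of called members are therefore no evidence that a function was favoured. Lysosome and MiT/TFE genes had 2 of 32 called higher (Laptm4a and Glb1) and a median of 0.16 (0.049 to 0.24), and SNAREs and ER-Golgi transport 1 of 32 (Ykt6) and a median of 0.23 (0.11 to 0.29). Rag GTPase, Ragulator and mTORC1 genes had 1 of 23 called (Rraga) and a median of -0.049 (-0.14 to -0.031), and Arp2/3 and actin regulators 1 of 21 (Arpc3) and a median of -0.033 (-0.18 to 0.11). DNA repair and carbonyl detoxification genes had 2 of 24 called lower (Mgmt and Dcxr) and a median of -0.14 (-0.17 to -0.043). Heparan sulfate and matrix genes had 1 called in each direction (Mmp24 and Sulf2) among 23 and a median of -0.21 (-0.35 to -0.14). Tricarboxylic acid and malate-aspartate enzymes had 1 of 24 called (Got2), the ATF4 list 1 of 19 (Slc1a5) and the cell cycle list 1 of 40 (Haus5), and nuclear oxidative phosphorylation had 0 of 77, with 1 at an unadjusted p under 0.05.

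Cytosolic ribosomal proteins were above 0 in 73 of 76 genes with a median of 0.51, none called and 18 at an unadjusted p under 0.05, against 47.2% and 14% of all genes above 0 and at that p. Rpl39, a protein of the large ribosomal subunit, ranged from 67.9 to 187 CPM in systemic control and 147 to 358 CPM in systemic cKO, which overlapped, with an interaction of 1.27 ± 0.40 (SE, adjusted p = 0.144), which was 1.41 without systemic cKO 2 and 0.50 with it as the only systemic cKO library. Mitochondrially encoded genes had a median of 0.45 with 9 of 9 above 0 and none called by edgeR, while the DESeq2 Wald test called mt-Nd3 (adjusted p = 0.0423). The median was 0.23 without systemic control 4, 0.29 without topical control 6 and 0.29 without systemic cKO 5. Mitochondrial genes took 1.87% to 6.42% of counts in systemic control, 2.45% to 6.05% in systemic cKO, 2.88% to 5.78% in topical control and 2.67% to 7.49% in topical cKO, and with that percent as a covariate edgeR called 364 interaction genes. Splicing factors and CLK kinases had a median of -0.31 (-0.20 without systemic control 3), with 25 of 35 below 0, none called by edgeR and 13 at an unadjusted p under 0.05. U2af1, which recognises the end of introns, was called higher in systemic cKO (effect 1.51 ± 0.25) with an interaction of 1.46 ± 0.34 (SE, adjusted p = 0.062), which was 1.64 without systemic cKO 2 and 0.36 with it as the only systemic cKO library. Srrm2, a splicing coactivator, had an interaction of -1.35 ± 0.38 (SE, adjusted p = 0.11), which was -1.62 without systemic cKO 2 and -0.59 with it as the only systemic cKO library. The DESeq2 Wald test called the interaction of U2af1 (adjusted p = 0.00986) and Srrm2 (adjusted p = 0.0343). In the EGF receptor list, the ligands Ereg and Areg were called higher in systemic cKO (effects 1.81 ± 0.39 and 1.66 ± 0.38), with interactions of 2.14 ± 0.58 (SE, adjusted p = 0.0916) and 1.82 ± 0.53 (SE, adjusted p = 0.121). They were 2.30 without systemic cKO 2 and 1.22 with it as the only systemic cKO library for Ereg, and 1.97 and 0.97 for Areg. The DESeq2 Wald test called the interaction of Ereg (adjusted p = 0.0172) and Areg (adjusted p = 0.0434). Fosb, an AP-1 subunit, was called higher in systemic cKO (effect 1.71 ± 0.31), and its interaction of 1.93 ± 0.43 (SE, adjusted p = 0.0517) lay just outside the threshold. It was 2.13 without systemic cKO 2 and 0.55 with it as the only systemic cKO library, and it was called without that library (adjusted p = 0.00273).

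**Figure D4:**
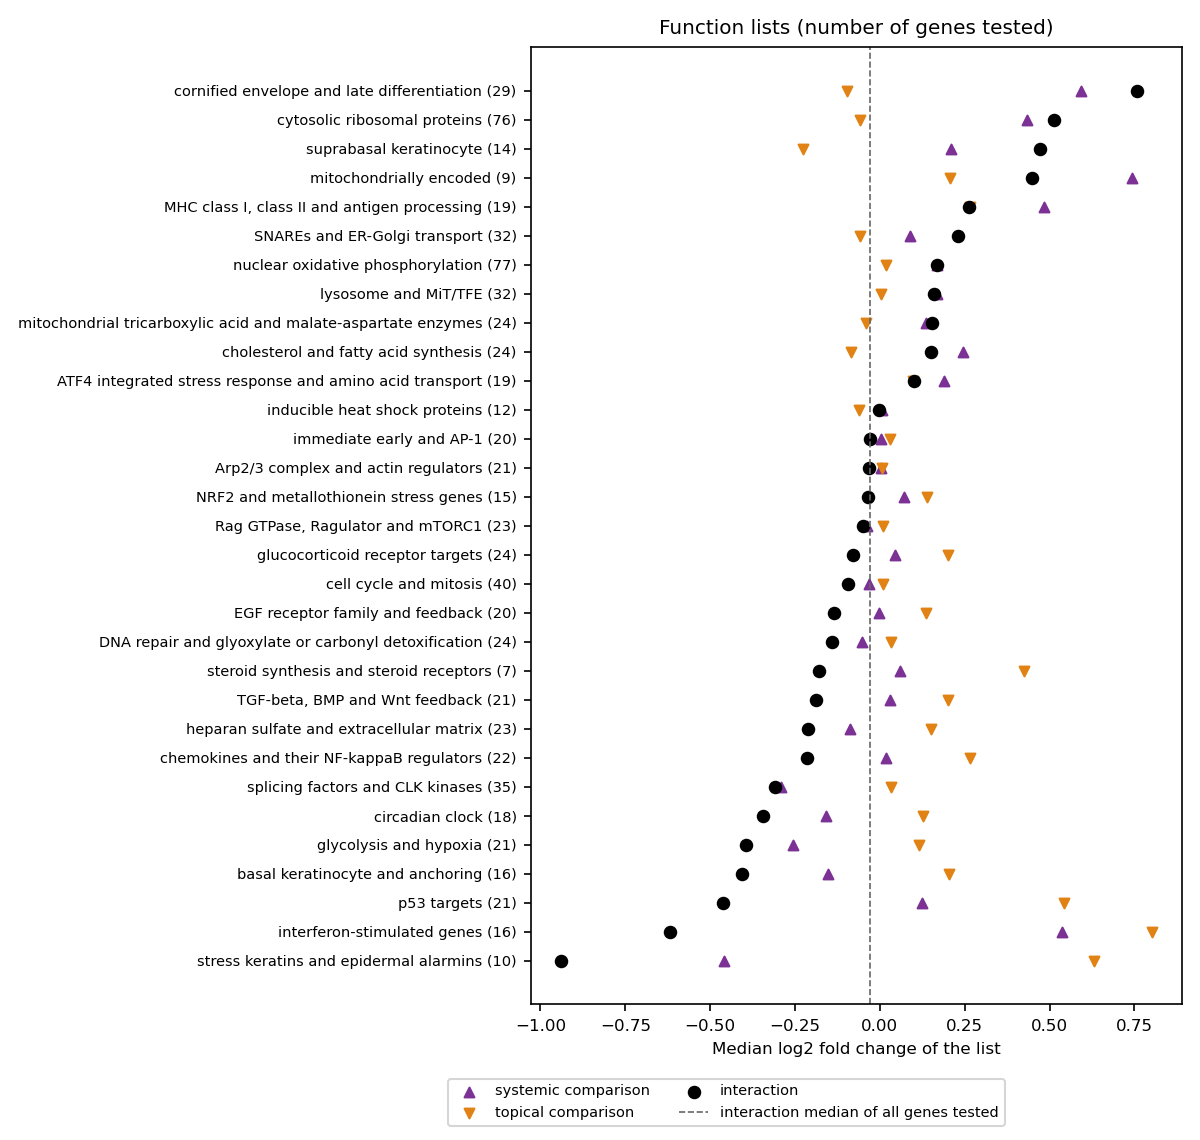
Median log2 fold change (x axis) of each of 31 function lists (rows, number of genes tested in brackets) in the systemic comparison, the topical comparison and the interaction, with the interaction median of all genes as a dashed line. The cornified envelope list lies farthest right at 0.76 and the stress keratins and alarmins farthest left at -0.94 in the genes that passed the filter, and in most lists at the bottom the topical median is positive.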

How the data were processed

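Keratinocyte RNA of 20 mice (4 groups of 5) was made into SmartSeq II libraries, per the labels' protocols. The authors deposited 1 table of raw counts, whole-number reads per gene for 25719 Ensembl identifiers, without normalization. Per the submitters' processing notes, STAR, featureCounts and the builds GRCm38 and mm10 were used. Versions, annotation and strand setting are not given in the sources used here. Coordinates come from GENCODE M21 (GRCm38).

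A single model of the 20 libraries was fitted in R 4.3.3 with edgeR 4.0.16 (TMM factors, filterByExpr with a minimum count of 10 and a minimum total of 15, robust quasi-likelihood, two-sided F tests, 1 coefficient per group), and p-values were adjusted by Benjamini-Hochberg over 12424 genes. Calls were made at adjusted p under 0.05. CPM values are scaled by TMM factors. Nothing in the labels says more of the mice than that controls were littermates, and p-values measure the spread between these mice. The alternatives were DESeq2 1.42.0, limma 3.58.1 voom, other filters, covariates, a replicate block and leaving out each library. In data simulated on 12424 genes for the interaction, with 200 changed by a log2 fold change of 1.5, 126 were called in the right direction with 5 false calls, and 0 were called without changes.

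The rule named all called genes, the called members of each of 31 lists or else up to 2 members with the smallest unadjusted p, and Cyp11b1. The comparison, the lists, the satellite-like set and the promoters shown were chosen with earlier results of these data known.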

Additional observations from a re-analysis of the deposited data

Results flagged for a closer look

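The genotype effect differed between the routes, by the interaction test of edgeR, in 31 genes, given here with their interaction log2 fold change. The more positive systemic effect was found in Arpc3 (1.89), Ykt6 (2.05), D7Ertd443e (2.17), Rraga (1.502), Laptm4a (2.78), Gatd3a (2.49), Mtch1 (1.31), Nkd2 (2.03), Sh3rf2 (1.37), Ifi30 (1.19), Epha1 (1.91), Cyp39a1 (1.40), Mmp24 (2.07), Fut2 (2.23), Cd82 (2.14), Csrnp1 (2.62), Atp2c2 (1.30), Glb1 (1.02), Sptlc3 (1.36), Got2 (1.61), BC029722 (1.97), Slc25a20 (0.73), Ociad1 (1.66). The more negative one was found in Abhd11 (-0.91), Mgmt (-1.40), Haus5 (-1.44), Dcxr (-1.16), Sulf2 (-1.52), Med10 (-0.75), Slc1a5 (-1.45), Slc39a13 (-0.86).

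In 20 of 300 groups of 5 libraries, over 75 named genes, 1 library lay far from the other 4 by Dixon's criterion, and chance flags about 1 in 20 groups. In systemic cKO 2, this was Abhd11 at 29.6 CPM (others 19.5 to 22), Csrnp1 at 20.9 CPM (others 119.8 to 148) and Krt77 at 3133 CPM (others 8467 to 10360). In systemic cKO 4, this was Gclc at 0.929 CPM (others 2.06 to 2.47). In systemic cKO 5, this was mt-Nd3 at 78.9 CPM (others 19.6 to 32.7). In systemic cKO 7, this was Nr3c2 at 1.12 CPM (others 0.632 to 0.759). In systemic control 1, this was Krt6a at 694 CPM (others 22.99 to 139.6) and Sc5d at 109.5 CPM (others 52.3 to 67.9). In systemic control 3, this was Dnaja1 at 60.3 CPM (others 50.6 to 52.7) and U2af1 at 13.2 CPM (others 7.64 to 9). In systemic control 4, this was D7Ertd443e at 2.30 CPM (others 3.36 to 3.64). In topical cKO 3, this was Fut2 at 13.9 CPM (others 7.99 to 9.50) and Spink5 at 78.8 CPM (others 42.4 to 46.9). In topical cKO 7, this was Ifi27l2a at 50.5 CPM (others 4.70 to 14.3), Krt6a at 2147 CPM (others 98.8 to 483) and Polk at 12.3 CPM (others 7.25 to 8.53). In topical control 1, this was Ppl at 192 CPM (others 145 to 154). In topical control 5, this was Gatd3a at 6.01 CPM (others 8.27 to 9.14). In topical control 6, this was Ociad1 at 65.98 CPM (others 73.2 to 75.2) and Slc25a20 at 17.3 CPM (others 14.6 to 15.4).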

How the results depend on the processing

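The 3 counts of calls moved with the method. The interaction (31 genes) was called for 29 genes with DESeq2 size factors, 40 with no filter and 49 with a mean of at least 5 CPM. It was called for 49 with sex as a covariate, 218 with limma voom and quality weights, 321 with the DESeq2 Wald test and 364 with the mitochondrial percent as a covariate. Sex was set from summed Y-linked transcripts over 5 CPM, since the labels do not give it. With satellite-like CPM as a covariate, edgeR called 0 genes in the interaction and 0 in the systemic comparison, whether coded over 50, over 1000 or on the log2 scale, with 306, 723 and 533 interaction genes at an unadjusted p under 0.05. Coded over 50, that covariate varies within systemic cKO alone, so the fit rests on systemic cKO 2. The systemic comparison (235 genes) gave 559 with the DESeq2 Wald test and 1320 with the mitochondrial percent, and the topical one (16 genes) gave 42 with the Wald test. Except where this paragraph says so, the cause was not tested. Leaving out each library gave 16 to 470 genes for the interaction, 81 to 787 for the systemic and 10 to 19 for the topical comparison. The systemic count was 787 without systemic cKO 2, 81, 84, 142 and 146 without systemic cKO 6, 5, 7 and 4, and 88, 119, 135 and 135 without systemic control 4, 3, 5 and 6. The topical count was 10 without topical control 1 and 10 without topical control 7. Of the 31 genes, 14 of the 23 and 2 of the 8 kept their call whichever library was left out. The sign changed for Tsc22d3 (-0.026), Fdps (-0.44) and Ndufb4 (-0.038) with the covariate coded over 50; none of these was called in the interaction.

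With the mouse number of the titles as a replicate block, edgeR called 0 interaction genes (1632 at an unadjusted p under 0.05, smallest adjusted p 0.0542), 288 systemic and 9 topical genes. The 31 genes had adjusted p of 0.0542 to 0.134 there. Their log2 fold changes were 0.72 to 2.63 and -1.56 to -0.79 in the 2 directions, against 0.73 to 2.78 and -1.52 to -0.75 without the block. Deviations of same-numbered libraries correlated at -0.31 to 0.51 over 20 pairs, with 9 over 0.1, so the numbers were not taken to pair the mice. Depth limits Cyp11b1, whose highest count was 6 reads.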

Other observations

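With systemic cKO 2 left out, more genes of the function lists passed the interaction test, and these were named after their values were seen. The cornified envelope list then had 5 genes called higher (Lor, Sbsn, Klk5, Cdsn and Spink5), which build or shed the outermost epidermal layer. The p53 list had 4 called lower (Bax, Ccng1, Polk and Gtse1), the splicing list 5 lower (Rbm39, Rsrp1, Srsf2, Srrm2 and Srsf7) and 1 higher (U2af1), and the EGF receptor list 2 higher (Ereg and Areg). Glucocorticoid receptor targets had 0 of 25 called by edgeR in this fit. In the fit, 3.74% of all genes were called.

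The longest transcripts of the 23 genes with the more positive systemic effect had a median GC content of 52.5% and a median length of 2759 bases, and those of the 8 others 56.4% and 2638 bases, against 49.7% and 3318 bases over the tested genes with an annotation.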
